A study of Mus musculus with 6 samples.

Results

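Cytosolic ribosomal protein genes encode the proteins that, with ribosomal RNA, build the small and large subunits of the ribosome in the cytoplasm. They were taken from the table of raw counts by symbol: names made of Rpl or Rps, a number and at most a short ending, plus Rplp0, Rplp1, Rplp2 and Rpsa, without the Rps6k kinases and without names holding -ps. This gave 84 of the 24047 gene rows, 33 of the small subunit and 51 of the large one. Of these, 81 passed the filter on low counts and were tested. The 3 others were Rpl39l, Rpl10l and Rpl26, with 43, 2 and 0 counts over all libraries.

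The 6 libraries were made from monocytes of wild-type mice of the strain given as C5/Bl6, aged 8 to 10 weeks, with nephrotoxic nephritis, a disease of the kidney filter set off by antibodies. Tissue was taken on day 13. Both groups carry the disease and no healthy mouse was analysed here, so the comparison is between tissues within diseased animals. The kidney libraries are replicates 7, 8 and 22, named double_pos. The spleen and bone marrow libraries are replicates 2, 24 and 26, named double. The series used 10 mice, and the labels do not say whether a library is 1 animal or a pool. The p-values therefore speak only for the spread among these 6 libraries, which may be technical. All populations were sorted, with the gates not given in the sources used here, and enrichment with a monocyte kit before sorting is described for the kidney alone. Tissue and handling cannot be told apart.

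Every cell needs a set of ribosomal proteins in near-equal amounts, and their transcripts are among the most abundant in growing cells. Transcription of these genes is tied to growth, with MYC among its regulators. Their mRNAs typically begin with a C followed by a run of C and T, the terminal oligopyrimidine or TOP tract, through which mTOR signalling controls how strongly they are translated. Protein output can therefore change with little change in mRNA, and RNA sequencing sees the mRNA alone.

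The sequences around the annotated start show where such a run stands, or is missing, in genes at either end of the comparison that follows. Of the 84 genes, 63 had an entry in the RefSeq promoter table (build GRCm38.p6), which spans 250 bases before to 50 after each start. Each window below runs from 60 bases before the start to 24 bases from it, 5′ to 3′ on the gene's strand. Capitals mark runs of a C followed by at least 4 C or T that begin within 25 bases of the start, and matches to CCGGAAG on either strand, the core bound by ETS family factors. Rps26 and Rpl41 are the genes called lower in kidney, Rplp2 and Rps2 had similar fold changes without a call, Rps6 is the target of the S6 kinases downstream of mTOR, and Rpl5, Rpl24 and Rpl35 lay at or above 0.
Rps26 (chr10:128626483-128626566, minus strand): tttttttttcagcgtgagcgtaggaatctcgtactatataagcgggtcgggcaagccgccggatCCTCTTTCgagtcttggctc
Rpl41 (chr10:128549145-128549228, minus strand): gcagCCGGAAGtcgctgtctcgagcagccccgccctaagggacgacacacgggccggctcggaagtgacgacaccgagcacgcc
Rplp2 (chr7:141447591-141447674, plus strand): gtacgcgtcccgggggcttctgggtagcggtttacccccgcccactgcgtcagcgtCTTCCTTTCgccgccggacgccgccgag
Rps2 (chr17:24720003-24720086, plus strand): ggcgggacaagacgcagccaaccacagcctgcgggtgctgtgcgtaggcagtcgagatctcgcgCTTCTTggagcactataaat
Rps6 (chr4:86857344-86857427, minus strand): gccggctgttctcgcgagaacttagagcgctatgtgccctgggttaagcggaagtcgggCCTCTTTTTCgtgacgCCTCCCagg
Rpl5 (chr5:107900468-107900551, plus strand): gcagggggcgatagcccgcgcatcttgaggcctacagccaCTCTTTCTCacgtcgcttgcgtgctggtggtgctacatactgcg
Rpl24 (chr16:55966215-55966298, plus strand): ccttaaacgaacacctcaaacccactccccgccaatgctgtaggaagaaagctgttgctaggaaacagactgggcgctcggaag
Rpl35 (chr2:39005108-39005191, minus strand): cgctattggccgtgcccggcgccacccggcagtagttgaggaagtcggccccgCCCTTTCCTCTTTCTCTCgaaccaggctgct

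In Rps26 and Rps2 the run lies a few bases after the annotated start, in Rplp2, Rps6 and Rpl35 it spans it, and in Rpl5 it lies before it. The windows of Rpl41 and Rpl24 show none that begins within 25 bases of the start. A start with C followed by at least 4 C or T was found in 13 of the 63 genes (20.6%), against 813 of 27025 genes in the table (3.01%). The annotated start can lie some bases off the one used in these cells, which can lower such counts. Within 25 bases on either side, 51 of 63 genes (81%) held such a run, but so did 56.8% of all genes. CCGGAAG stood on either strand of the whole window in 26 of 63 (41.3%) against 9.93% of all genes, AAGATGGC, a core of the factor YY1, in 6 (9.52%) against 3.19%, and TATAAA in 7 (11.1%) against 15.7%. For the comparison of tissues described next, the median log2 fold change was -0.35 over the 13 genes with the TOP start and -0.27 over the 47 other matched and tested genes. With and without a run within 25 bases the medians were -0.30 and -0.24. They were -0.32 and -0.27 for CCGGAAG, -0.45 and -0.28 for AAGATGGC and -0.43 and -0.27 for TATAAA. A more negative median was thus not particular to the TOP start. These matches are descriptions of letters and do not show binding.

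The question put to the counts was whether monocytes of the inflamed kidney carry a different ribosomal protein programme from monocytes of spleen and marrow. The genes leaned to lower levels in kidney, by small amounts that mostly missed the test. In edgeR's quasi-likelihood test on all 10623 tested genes, with Benjamini-Hochberg adjusted p under 0.05 as the threshold, 2 of the 81 genes fell in kidney and 0 rose, where 5.9% and 7.83% of all tested genes did. At an unadjusted p under 0.05, 24 were lower (29.6%, against 12.5% of all genes) and 1 was higher (15.4% of all genes). DESeq2 called 14 lower and 0 higher (9.39% of all genes lower) and limma-voom 4 lower and 0 higher (7.89%). The log2 fold change was below 0 in 74 genes, with a median of -0.29 over the 81 against 0.05 over all genes tested, and its size was under 1 in 79 of them. Kidney and spleen and marrow did not overlap in 38 genes that were lower in kidney and in 1 that was higher, where 18.8% and 19.2% of all tested genes did not overlap. The 81 genes share libraries and scaling and are not independent of each other. In bulk RNA, fewer cells of a type and less RNA per cell cannot be told apart.

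**Figure D1:**
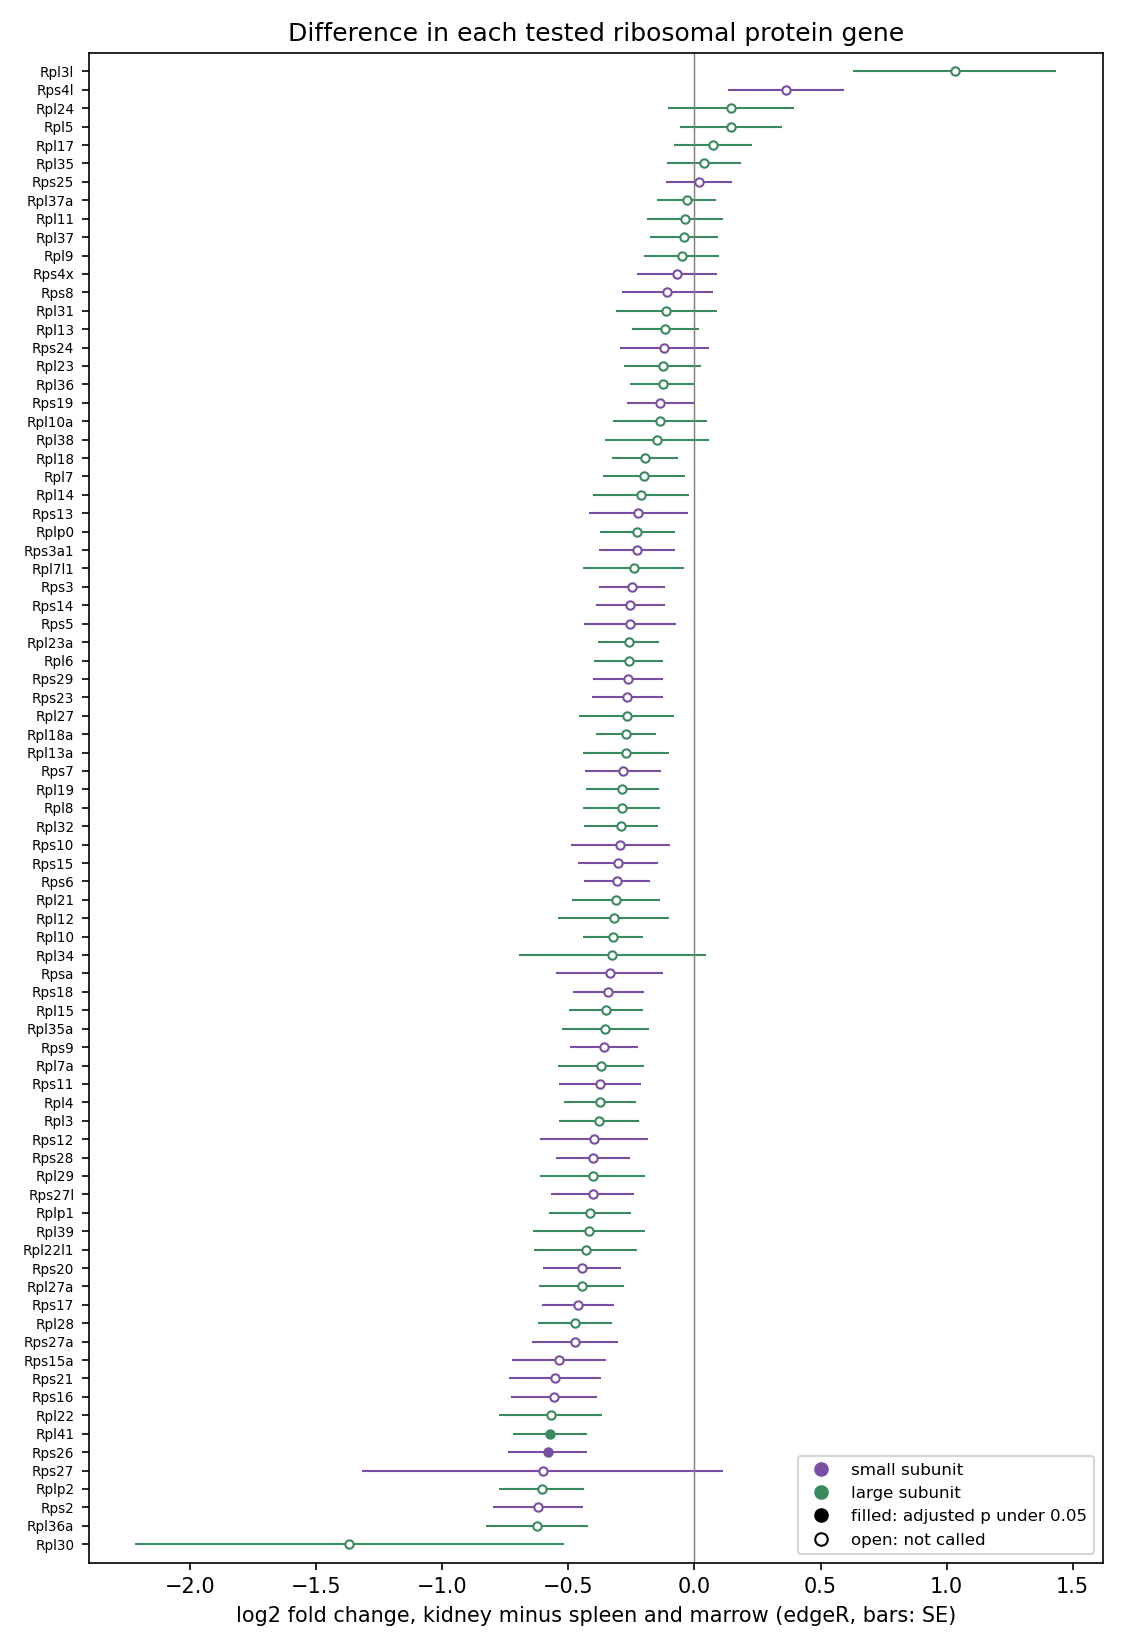
Log2 fold change, kidney minus spleen and marrow, for each of the 81 tested ribosomal protein genes (x axis), ordered by value; bars are the standard error and filled points have an edgeR adjusted p under 0.05. All but 7 points lie below 0, and the 2 filled points are Rps26 and Rpl41.

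Rps26, a small subunit protein beside the channel where mRNA leaves, stood at 359.5, 314 and 325 CPM (counts scaled to a common library size by TMM) in kidney replicates 7, 8 and 22 and at 599, 436 and 459 CPM in spleen and marrow replicates 2, 24 and 26. All kidney values lay below all spleen and marrow values. The log2 fold change was -0.58 ± 0.16 (SE), with an edgeR adjusted p of 0.0468. Rpl41, the smallest protein of the large subunit, stood at 579, 496 and 517 CPM in kidney and 928, 716 and 725 CPM in spleen and marrow, again without overlap. Its log2 fold change was -0.57 ± 0.15 (SE), with an edgeR adjusted p of 0.0395. Both calls were lost on leaving out any 1 library other than kidney replicate 22, with edgeR adjusted p up to 0.125 for Rps26 and 0.108 for Rpl41. In each of these 5 fits 0 ribosomal protein genes were called in either direction. Among all genes, leaving out kidney replicate 7 gave 4.49% lower and 8.15% higher, and leaving out kidney replicate 8 gave 5.39% and 8.52%. Leaving out replicate 2, 24 or 26 of the other tissue gave 1.84% and 2.57%, 1.84% and 2.54%, and 1.59% and 2.31%. Without kidney replicate 22, edgeR called 4 genes lower (11.1% of all genes) and 0 higher (14.3%), the 4 being these and Rplp2 and Rps2, which limma-voom called as well.

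Rplp2 encodes an acidic protein of the stalk, the arm of the large subunit that recruits elongation factors. It stood at 675, 526 and 637 CPM in kidney and 1126, 810.3 and 860.2 CPM in spleen and marrow, a log2 fold change of -0.61 ± 0.17 (SE) with an edgeR adjusted p of 0.0518. The other stalk genes gave -0.41 ± 0.16 for Rplp1 and -0.23 ± 0.15 for Rplp0 (log2 fold change ± SE), with edgeR adjusted p of 0.146 and 0.369. Their groups lie closer: for Rplp0, kidney replicates 7 and 22 at 892 and 911 CPM were above spleen and marrow replicate 24 at 890.2 CPM. Rps2, which lines the channel where mRNA enters, stood at 298, 284 and 378 CPM in kidney and 592, 427 and 457 CPM in spleen and marrow (edgeR adjusted p = 0.0576). Rpl36a, of the large subunit, had a log2 fold change of -0.62 ± 0.20 (SE) and an edgeR adjusted p of 0.0821.

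**Figure D2:**
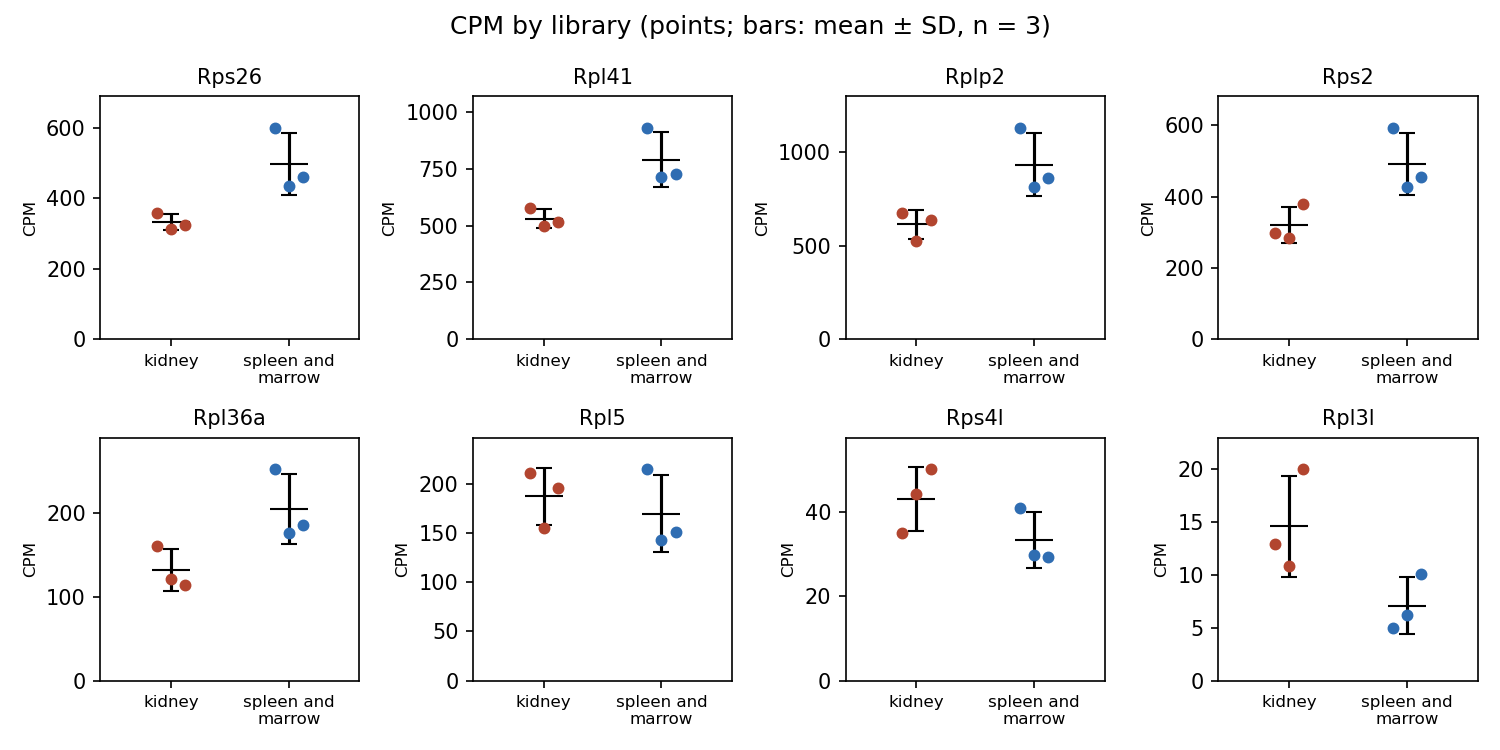
CPM of 8 ribosomal protein genes in each library (points), with the mean ± SD of 3 libraries per group (bars). In Rps26, Rpl41, Rplp2, Rps2 and Rpl36a all kidney points lie below the spleen and marrow points, while Rpl5 and Rps4l overlap and Rpl3l is higher in kidney.

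At the other end, 7 genes had log2 fold changes above 0, none with a call. Rpl3l, a form of Rpl3 known from muscle, was the gene whose groups did not overlap with kidney higher, at 12.9, 10.9 and 19.96 CPM in kidney and 4.94, 6.16 and 10.1 CPM in spleen and marrow. Its log2 fold change was 1.03 ± 0.40 (SE), with an edgeR adjusted p of 0.142. Rps4l, a relative of the X-linked Rps4x, stood at 34.97, 44.4 and 50.2 CPM in kidney and 41.1, 29.8 and 29.4 CPM in spleen and marrow, so the groups overlapped (edgeR adjusted p = 0.351). Rpl5 and Rpl11 form, with a small ribosomal RNA, the particle that binds MDM2 when ribosome assembly fails. They had log2 fold changes of 0.14 ± 0.20 and -0.04 ± 0.15 (SE). Rpl24, Rpl17 and Rpl35 stood at 0.14, 0.07 and 0.04 on that scale and changed sign under other settings.

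Most genes of the remaining roles also lay below 0. Rpsa, which also serves as a laminin receptor, had a log2 fold change of -0.34 ± 0.21, Rps6 of -0.31 ± 0.13, Rps27a, made as a fusion with ubiquitin, of -0.48 ± 0.17, Rps23 of the decoding centre of -0.27 ± 0.14 and Rps3 at the mRNA entry of -0.25 ± 0.13 (SE), all without a call in edgeR. Of 7 genes whose proteins line or border the exit tunnel for the new chain, 5 lay below 0, with a range from -0.42 to 0.07. Of 18 tested genes mutated in Diamond-Blackfan anaemia, a failure of red cell production, 16 lay below 0, with a median of -0.28 and 1 call, Rps26. By subunit, the median log2 fold change was -0.31 over 33 small and -0.27 over 48 large subunit genes, with 13 and 11 genes lower at an unadjusted p under 0.05. Small subunit genes took 45.8%, 45.9% and 46.7% of the counts of the 84 genes in kidney replicates 7, 8 and 22 and 47.3%, 47.0% and 47.0% in spleen and marrow replicates 2, 24 and 26.

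In these genes 1 library stood apart. Spleen and marrow replicate 2 was the highest of the 6 libraries for 72 of the 81 genes (88.9%), against 18.1% of all tested genes. The 84 genes together took 5.01% of its counts. Their share was 4.06% in replicate 24 and 4.08% in replicate 26, and 4.19%, 3.44% and 3.69% for kidney replicates 7, 8 and 22. Kidney replicate 7 thus lay above replicates 24 and 26 and the groups overlapped on total counts. On the TMM-adjusted library size they did not overlap. The shares there were 3.95%, 3.41% and 3.78% in kidney replicates 7, 8 and 22. In spleen and marrow replicates 2, 24 and 26 they were 5.14%, 4.06% and 4.25%. Kidney replicate 8 was the lowest library for 48 genes (59.3%, against 12.7% of all genes). Relative to each gene's own mean over the libraries, on the scale log2(CPM + 0.5), the median gene lay at 0.36 in replicate 2 and between -0.24 and 0.07 in the 5 others. Replicates 24 and 26 were much alike: the chi-square per degree of freedom between their counts, which is near 1 for sampling noise alone, was 6.37 over the ribosomal protein genes and 3.60 over all tested genes. The other pairs of libraries within a group gave 30.4 to 150.3 and 23.4 to 67.5. Replicates 24 and 26 were kept as separate libraries, and with both summed into 1 library edgeR called 0 ribosomal protein genes, where 1.77% of all genes were lower and 2.65% higher. Without replicate 2, where edgeR called 0 genes, 8 were lower and 0 higher at an unadjusted p under 0.05, where 8.76% and 12.4% of all genes were, so the share of lower genes was near the background. The median log2 fold change was then -0.19, and 68 of the 81 genes were below 0.

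**Figure D3:**
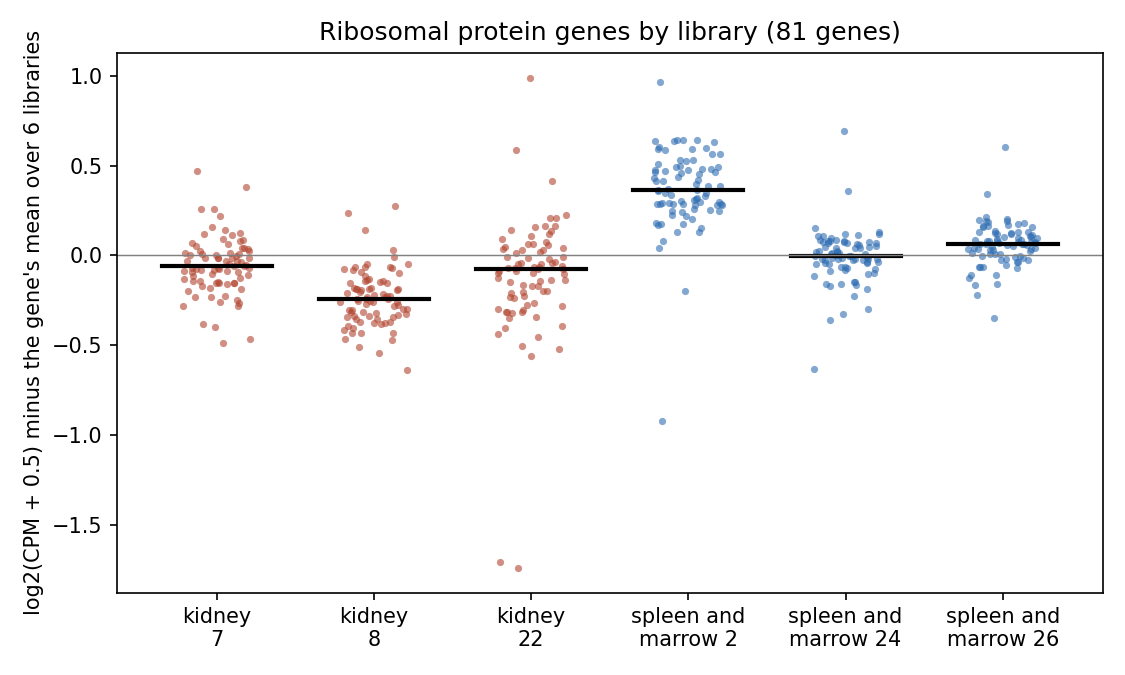
Log2(CPM + 0.5) of each of the 81 tested genes minus that gene's mean over the 6 libraries (points), by library, with the median as a bar. The bar of spleen and marrow replicate 2 lies at 0.36 and that of kidney replicate 8 at -0.24, with the 4 others between -0.08 and 0.07.

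Other measures differed between the libraries beside this. The summed level of 23 cell cycle genes, of which 20 fell in kidney, was 3700 CPM in spleen and marrow replicate 2, 3225 and 3362 CPM in replicates 24 and 26, and 196 to 751 CPM in kidney. Of 9 granule precursor markers 2 fell, Prtn3 and Ctsg, proteases of early granulocytes. At an unadjusted p under 0.05 in edgeR, 5 of the 9 were lower and 0 higher, against 12.5% and 15.4% of all tested genes. Prtn3 stood at 1171, 627 and 669 CPM and Ctsg at 707, 290 and 314 CPM in spleen and marrow replicates 2, 24 and 26, while the list summed to 8902 to 10466 CPM there. In kidney it summed to 243 and 1172 CPM in replicates 7 and 8 and to 14355 CPM in replicate 22, which stood apart through Ngp and Camp, at 8144 and 5259 CPM. All 12 monocyte markers were tested, of which 7 rose and 2 fell in kidney, with sums of 41981 to 44355 CPM in kidney and of 50562, 63165 and 68392 CPM in replicates 2, 24 and 26. Most of each sum is Lyz2, which encodes lysozyme and fell in kidney (30732 ± 1319 against 46679 ± 8995 CPM, mean ± SD, n = 3 each), as did Ly6c2. The 7 that rose were Cx3cr1, Cd14, Csf1r, Fcgr1, Emr1, Sirpa and Itgam, with log2 fold changes from 0.94 for Sirpa to 2.45 for Cx3cr1. Of 12 tubule markers, 5 were tested and 4 rose in kidney (81.9 to 527 CPM in sum, against 0.858 to 1.09 CPM). Of 12 endothelial and 11 fibroblast and mural markers 3 each were tested and 1 each rose. Their sums reached 987 and 1241 CPM in kidney replicate 8, where ribosomal protein transcripts were lowest, against 22.02 to 57.3 CPM in the other kidney libraries and 8.07 to 14.9 CPM in spleen and marrow. Most of the fibroblast and mural sum in kidney replicate 8 was a single gene, Sparc, at 1176 CPM. T and NK cell markers summed to 9.48, 31.7 and 42.6 CPM in kidney and to 102 to 124.5 CPM in spleen and marrow, without overlap. Of their 5 tested genes 0 were called by edgeR and 2 were lower at an unadjusted p under 0.05. B cell markers summed to 25.9 to 47.3 CPM in the 6 libraries and erythroid markers to 2.61 to 14.7 CPM, with 0 of 2 tested genes called in each, also at an unadjusted p under 0.05. The markers Lum, Hba-a1, Hba-a2, Hbb-b1 and Hbb-b2 had no count. The part of these cells and of proliferation in the ribosomal protein values was not tested. The depth was between 3492391 and 9727489 counts per library, smallest for kidney replicate 22.

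To ask whether single proteins moved against the rest of the ribosome, libraries were also scaled on the ribosomal protein genes themselves, a choice made after seeing the data. On this scale edgeR called 0 of the 81 genes (3% of all genes lower and 10.3% higher), with 0 lower and 3 higher at an unadjusted p under 0.05, where 5.7% and 22.3% of all genes were. The 3 genes, a smaller share than among all genes, were Rpl3l, Rps4l and Rpl5. Their log2 fold changes were 1.27, 0.67 and 0.44 there, with edgeR adjusted p of 0.102, 0.117 and 0.141. Rps26 and Rpl41 stood at -0.29 each, with edgeR adjusted p of 0.255 and 0.248. This scale moved the median of all genes from 0.05 to 0.32.

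Levels of different genes can be compared only per transcript length, on the deposited FPKM (fragments scaled for depth and transcript length). Of the 84 genes, 75 had a mean FPKM over 100 and 26 over 1000, with a median of 669, and 76 were among the 1000 genes with the highest FPKM. The highest were Rpl35 (4123), Rps29 (3600), Rpl38 (3443), Rpl37a (2544) and Rpl41 (2430 FPKM, means over 6 libraries). In kidney Rpl35 stood at 3984 ± 1109 FPKM and in spleen and marrow at 4262 ± 132 FPKM (mean ± SD, n = 3 each), a spread in kidney that takes in the kidney means of Rps29 (3125) and Rpl38 (3086). The lowest were Rpl7l1, Rps4l, Rpl3l, Rpl39l and Rpl10l, all relatives of a main ribosomal protein, at 20.9, 18.9, 5.02, 0.614 and 0.0189 FPKM. On FPKM the groups did not overlap in 41 of the 81 tested genes with kidney lower (21.4% of all tested genes) and in 1 with kidney higher (14.9%), and replicate 2 was highest for 71 (18.7%).

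Counts and FPKM disagreed for a few genes. Rps27, of the small subunit, had 118 counts over 6 libraries, of which 1 was in kidney replicate 22, yet a mean of 1896 FPKM, at 1908, 1229 and 961 FPKM in kidney and 2851, 2367 and 2060 FPKM in spleen and marrow. Rpl30 had 73 counts and a mean of 40.9 FPKM, Rpl34 had 412 counts and 141 FPKM, and Rpl26 had 0 counts and 42.1 FPKM. Other genes had many counts and a low FPKM. Rps15a had a mean of 337 CPM and 47.5 FPKM and Rpl22 of 264 CPM and 70.0 FPKM. Rpl38 had 230 CPM and 3443 FPKM. CPM is not corrected for length, and the lengths behind the FPKM were not checked. The order of the genes by FPKM is therefore uncertain too. Ribosomal protein genes have many processed pseudogene copies in the genome and Rps27 is nearly identical to Rps27rt, which had 0 counts in each library. How the counts treat reads that match several places is not given in the sources used here, and the cDNA kit does not mark strand. Count values of Rps27, Rpl30 and Rpl34 are therefore uncertain, and so are the log2 fold changes of -0.60, -1.37 and -0.33 that place Rps27 and Rpl30 among the most negative.

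**Figure D4:**
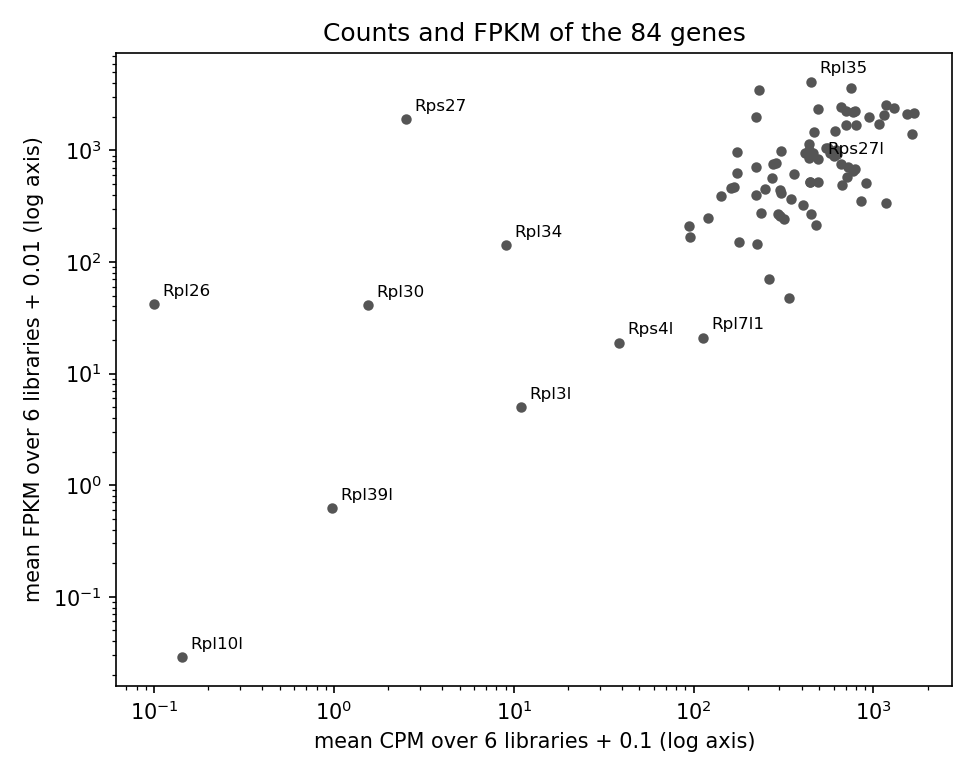
Mean CPM plus 0.1 (x axis) against mean FPKM plus 0.01 (y axis) over 6 libraries for the 84 ribosomal protein genes, both on log axes. Rps27, Rpl34, Rpl30 and Rpl26 lie far to the left of genes with like FPKM, and the relatives Rpl7l1, Rps4l, Rpl3l, Rpl39l and Rpl10l lie at the bottom.

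Some ribosomal proteins have a second form that can take the place of the main one. Their share of the pair was compared for 7 pairs with exact two-sided permutation tests over the 6 libraries, whose smallest p is 0.1. On FPKM, which takes length into account, Rpl3l made up 3.27 ± 0.956% of Rpl3l plus Rpl3 in kidney and 1.33 ± 0.44% in spleen and marrow (SD, n = 3 each), higher in 3 of 3 kidney libraries (exact p = 0.1, adjusted p = 0.7). Rpl22l1 took the larger part of its pair with Rpl22 on FPKM, at 78.0 ± 4.30% against 77.7 ± 0.917% (exact p = 1). On raw counts Rpl22 took the larger part, so which form is the main one is not settled here. Rps4l made up 4.98 ± 1.29% against 3.82 ± 0.224% of its pair with Rps4x (exact p = 0.4). Rps27l, a p53 target close to Rps27, made up 51.6 ± 7.01% of the pair in kidney and 44.8 ± 2.46% in spleen and marrow (SD, n = 3 each, exact p = 0.3). The exact p of the other pairs, Rpl7l1, Rpl10l and Rpl39l, was 0.5, 1 and 0.9. Shares of raw counts are not corrected for length and differ in level, at 32.8% against 30.2% for Rpl22l1, 12.7% against 9.57% for Rps4l, 5.17% against 1.95% for Rpl3l and 99.7% in either group for Rps27l, where Rps27 had few counts.

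Few genes of the rest of the translation machinery were called. Of ribosome genes named otherwise, Fau, whose product is made as a fusion with a ubiquitin-like protein, Gnb2l1, which encodes RACK1, and Rpl36al had log2 fold changes of -0.27, -0.05 and -0.38. None of them passed the edgeR threshold. Of 38 initiation factor genes 1 rose and 1 fell, with a median of -0.10. Eif5b, which joins the subunits, rose by a log2 fold of 0.58 ± 0.13 and Eif2b2, of the factor that recharges eIF2, fell by 1.01 on that scale. Of 10 elongation and termination factor genes 0 were called (median -0.00, with 1 lower and 1 higher at an unadjusted p under 0.05), of 55 ribosome assembly genes 1 rose (median 0.04) and of 13 genes of RNA polymerase I, which makes ribosomal RNA, 1 rose (median 0.16). The risers were Grwd1, an assembly factor, at a log2 fold of 1.19 ± 0.32, and Taf1d at 0.64 ± 0.17 (SE). Of 25 other genes with TOP mRNAs 1 fell, Vim, which encodes vimentin, at -0.62 ± 0.12. Each of these shares is below the 7.83% higher or 5.9% lower among all genes, that of RNA polymerase I only just, and the lists are short. At an unadjusted p under 0.05 in edgeR, 6 initiation factor genes were lower and 2 higher. Of the other TOP genes 5 were lower and 1 higher, of the assembly genes 2 and 6, and of the RNA polymerase I genes 1 and 1. Among all tested genes 12.5% were lower and 15.4% higher at that threshold. Leaving out any 1 of replicates 2, 24 and 26 ended the edgeR calls of Eif5b, Eif2b2, Grwd1 and Taf1d (adjusted p up to 0.22). Calls of Eif2b2 and Taf1d were also lost without kidney replicate 7, that of Grwd1 without kidney replicate 7 or 8, and that of Vim without replicate 24 or 26 (edgeR adjusted p = 0.0635 and 0.0797).

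**Figure D5:**
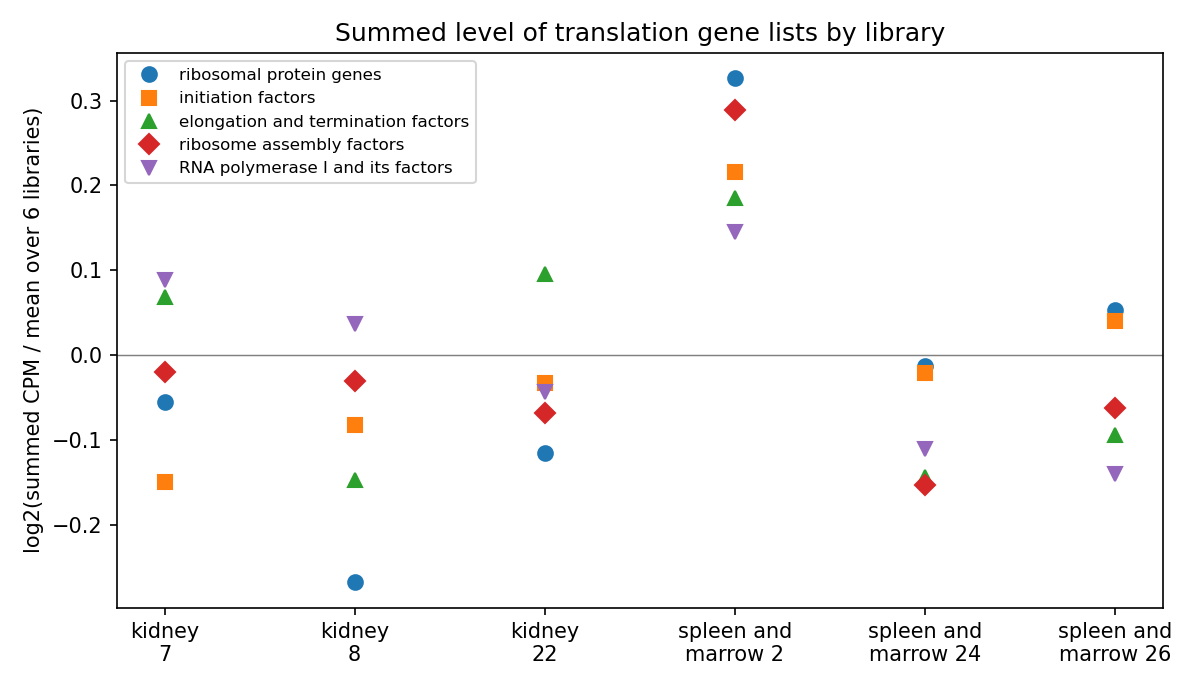
Summed CPM of the 84 ribosomal protein genes and of 4 other translation lists, as log2 of the ratio to the mean over 6 libraries, by library (x axis). All 5 sums are highest in spleen and marrow replicate 2, and that of the ribosomal protein genes is lowest in kidney replicate 8.

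Among regulators of ribosome production, 3 genes were called. Myc stood at 20.4, 23.6 and 22.3 CPM in kidney and 8.62, 5.88 and 7.40 CPM in spleen and marrow. It rose by a log2 fold of 1.59 ± 0.28 (SE, edgeR adjusted p = 0.00984), a call lost without replicate 24 or 26 (adjusted p = 0.0692 and 0.0737). Mxd3, a MAX partner linked to proliferation, fell in kidney, at 21.7 ± 10.2 CPM against 83.3 ± 5.12 CPM (mean ± SD, n = 3 each, edgeR adjusted p = 0.00698). They were the calls among 10 tested genes of the MYC network. Of 17 genes of mTOR signalling and TOP mRNA control 0 were called (median 0.01, with 2 lower and 3 higher at an unadjusted p under 0.05). Of 11 tested p53 targets and regulators 1 rose, Sesn1, which encodes a sestrin that restrains mTOR, at 23.1 ± 2.89 CPM in kidney against 3.81 ± 1.32 CPM (mean ± SD, n = 3 each, edgeR adjusted p = 0.0034). The calls of Mxd3 and Sesn1 held on leaving out any 1 library. Among all tested genes edgeR called 7.83% higher and 5.9% lower. At an unadjusted p under 0.05 the shares were 15.4% and 12.5%. These lists are short, and 1 call in 10 or 11 genes is near the background.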

How the data were processed

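Gene expression was read from 2 tables of the whole series with 3 kidney and 3 spleen and marrow libraries, assigned by sample title. The deposited values of the first table are raw counts, 1 row per gene, and the deposited FPKM values were scaled by the authors for depth and length. Per the labels' protocols, SMART-Seq v4 reagents turned 2 ng of RNA into cDNA, which was sheared (mean 150 bp) before library construction. The submitters' processing notes list the tools STAR 2.5, Cufflinks 2.2.1 and bcl2fastq 2.18 and the build mm9, without their roles. The 92 spike-in rows held no count and were left out, as were rows whose symbol occurs more than once.

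The test on the counts was edgeR 4.0.16 under R 4.3.3 (filterByExpr with its minimum count of 10, TMM, glmQLFit and glmQLFTest, two-sided, Benjamini-Hochberg over 10623 genes, threshold 0.05). Standard errors are log2 fold changes over the root of the F statistic, and CPM uses the TMM-adjusted library size. Totals ranged from 3492391 to 9727489 counts per library, and with no molecular identifiers this depth bears on counting error only. The method was tested on simulated data. Alternatives used DESeq2 1.42.0, limma 3.58.1 (voom, and trend on log2(FPKM + 1) or log2(FPKM + 0.1)), other scalings and filters, a robust fit, a threshold of 0.01, each library left out, and replicates 24 and 26 summed. Named are the called genes, the 6 largest and 6 smallest fold changes, the 5 highest and 5 lowest by FPKM, genes by role, and called genes of other lists. Rpl34, Rpl26 and Rps15a were named for their counts and FPKM after their values were seen. Members, lists and tests were chosen with earlier results of these data known. Figures were drawn with matplotlib 3.10.9.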

Additional observations from a re-analysis of the deposited data

How the results depend on the processing

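No paired analysis was made. The groups share no replicate number, and the labels do not say whether any libraries of the 2 groups come from the same mouse. The count of ribosomal protein genes lower in kidney, 2 with edgeR and TMM, was 0 with scaling by library size, with TMM on the ribosomal protein genes only, with a minimum count of 50, with limma on FPKM at a pseudocount of 1 or 0.1, with replicates 24 and 26 summed and at a threshold of 0.01. It was 4 with no filter beyond 1 count and with limma-voom, 14 with DESeq2, and 0 to 4 on leaving out 1 library. Over all genes, 543 of 10623 were lower with scaling by library size and 515 of 7985 with a minimum count of 50. With no filter 650 of 16758 were, beside the 4 of 83 ribosomal protein genes. No setting called a ribosomal protein gene higher. The median log2 fold change stayed below 0 in all settings (-0.38 to -0.19 on leaving out 1 library) and was -0.0028 when scaled on these genes themselves, which centres them by construction. The share of counts was lower in kidney by 0.607 percentage points (-0.816 to -0.293 on leaving out 1 library) but 0.0566 higher as a share of the FPKM sum. Without the row Mir6236 that share was 11.6% in kidney and 12.8% in spleen and marrow, with overlapping groups. It was 13.3%, 10.8% and 10.8% in kidney replicates 7, 8 and 22. In spleen and marrow replicates 2, 24 and 26 it was 13.8%, 11.7% and 12.9%.

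Over all genes, 832 were higher and 627 lower. The counts were 322 and 190 at a threshold of 0.01, 299 and 200 with replicates 24 and 26 summed, 468 and 629 on log2(FPKM + 1), 543 and 586 on log2(FPKM + 0.1), 737 and 838 with limma-voom, 1163 and 995 with DESeq2, 1089 and 319 when scaled on ribosomal protein genes, and 260 to 1569 and 179 to 1215 on leaving out 1 library. In the other translation lists 5 were higher and 3 lower. These became 8 and 1 when scaled on ribosomal protein genes, 8 and 9 with DESeq2, 1 and 1 with replicates 24 and 26 summed, 2 and 1 at a threshold of 0.01, 7 lower with limma-voom, 3 higher with no filter, 2 higher on either FPKM scale, and 1 to 11 and 1 to 9 on leaving out 1 library. Log2 fold changes near 0 changed sign. Rpl17 was -0.0092 with replicates 24 and 26 summed, -0.0538 and -0.0540 on the FPKM scales and -0.0216 to 0.18 on leaving out 1 library. Rpl24 was -0.108 on both FPKM scales and -0.19 to 0.29 on leaving out 1 library. Rpl35 was -0.0109 with no filter, -0.0141 with the sum, -0.138 on both FPKM scales and -0.0852 to 0.10 on leaving out 1 library. Differences in paralog share of counts, in percentage points, ran on leaving out 1 library from -1.64 to 0.993 for Rpl7l1, -0.346 to 5.76 for Rpl22l1, -0.212 to 0.186 for Rpl39l and -0.0467 to 0.169 for Rps27l. The cause was not tested. Depth limits genes with few counts, such as Rps27 and Rpl30.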
